A study of Drosophila melanogaster with 5 samples.

Results

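The genes described here encode the nuclear subunits of mitochondrial complex I in Drosophila melanogaster. They were taken by name alone, as every gene whose FlyBase symbol starts with ND-, which gave 40 of the 17735 gene identifiers counted. Of these, 6 are paralogs named after another member with an L at the end, such as ND-20L, ND-24L, ND-51L1, ND-51L2 and ND-B14.5AL, and the other 34 were treated as the ubiquitous set. ND-MNLL stayed in the ubiquitous set because its last letter belongs to the name of the bovine protein. No assembly factor carries an ND- symbol, so assembly factors were described from a list of their own.

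Poly(A) RNA of whole third-instar larvae was sequenced in 3 libraries of CG1603attP and 2 libraries of y1w1118. In CG1603attP, a line made with CRISPR/Cas9, most of the gene for the zinc-finger protein Mzfp1 is replaced by an attP site and a 3P3:dsRed reporter between loxP sites. The larvae were CG1603attP/CG1603attP homozygotes, from parents that carried the deletion over CyO GFP, and y1w1118 larvae with an intact CG1603 gene were the wild type. The study gives the mutant larvae a y1w1118 background but names another stock as the injected line, so the backgrounds may differ elsewhere. Homozygotes die as second- or third-instar larvae, RNA was extracted from a weighed mass of larvae, and only 1 deletion line was sequenced, so a difference belongs to these lines at this stage.

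Complex I takes electrons from NADH, passes them to ubiquinone and pumps protons across the inner mitochondrial membrane. Its N module binds NADH, its Q module carries the electrons to ubiquinone, and its membrane arm holds the pumps, whose channels are built mainly from subunits encoded in mitochondrial DNA. The nuclear genes therefore supply all subunits of the matrix arm and the small accessory subunits around the membrane arm. Flight and body wall muscle is rich in mitochondria, and several subunits have copies that are expressed mainly in the male germline of flies.

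Between 9044930 and 14514277 reads per library were counted on genes, so that 1 read stood for 0.0668 to 0.116 CPM (read counts scaled to a common library size, corrected by TMM). CG1603 itself was checked first, with 0, 0 and 3 reads in CG1603attP against 124 and 102 in y1w1118. A pair of libraries stood apart from the rest of their genotype. In CG1603attP replicate 1, 86 genes were at least 3 log2 units above the other libraries of that genotype, and in y1w1118 replicate 2, 83 genes were. Both libraries shared 57 of these genes, 22 of them Twdl, Osi or Cpr cuticle genes and 0 of them complex I genes.

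Nuclear complex I genes were lower as a group in CG1603attP larvae. Of the 34 ubiquitous genes, 32 were abundant enough to be tested, and 26 of the 32 (81.2%) were lower in CG1603attP, while 15.7% of all 11045 genes tested were. None was higher, against 14.6% of all genes tested, and 6 did not pass. The test was edgeR's quasi-likelihood F-test, adjusted by Benjamini-Hochberg over all genes at 0.05. It called 30.4% of all genes in either direction, and 0 of the 32 were higher at an unadjusted p of 0.05 or with DESeq2. Over the 32 genes the median log2 fold change was -1.04, which is 48.6% of the y1w1118 level, against -0.01 over all genes tested. In 28 of the 32 genes (87.5%) every CG1603attP library lay below every y1w1118 library, and 30.8% of all genes tested had this order. The opposite order was found in 28.9% of all genes tested and in 0 of the 32. In 8 genes the highest CG1603attP library had less than 50% of the CPM of the lowest y1w1118 library. The 26 genes that fell had log2 fold changes between -1.92 and -0.52, and 16 of them fell below 50% of the y1w1118 level. Neither 50% count was made over all genes tested, so the 8 and the 16 have no background share and are only a description. Without y1w1118 replicate 1, which leaves a single wild-type library, 13 of the 26 genes passed, and without both libraries with high cuticle-gene reads 19 passed.

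**Figure D1:**
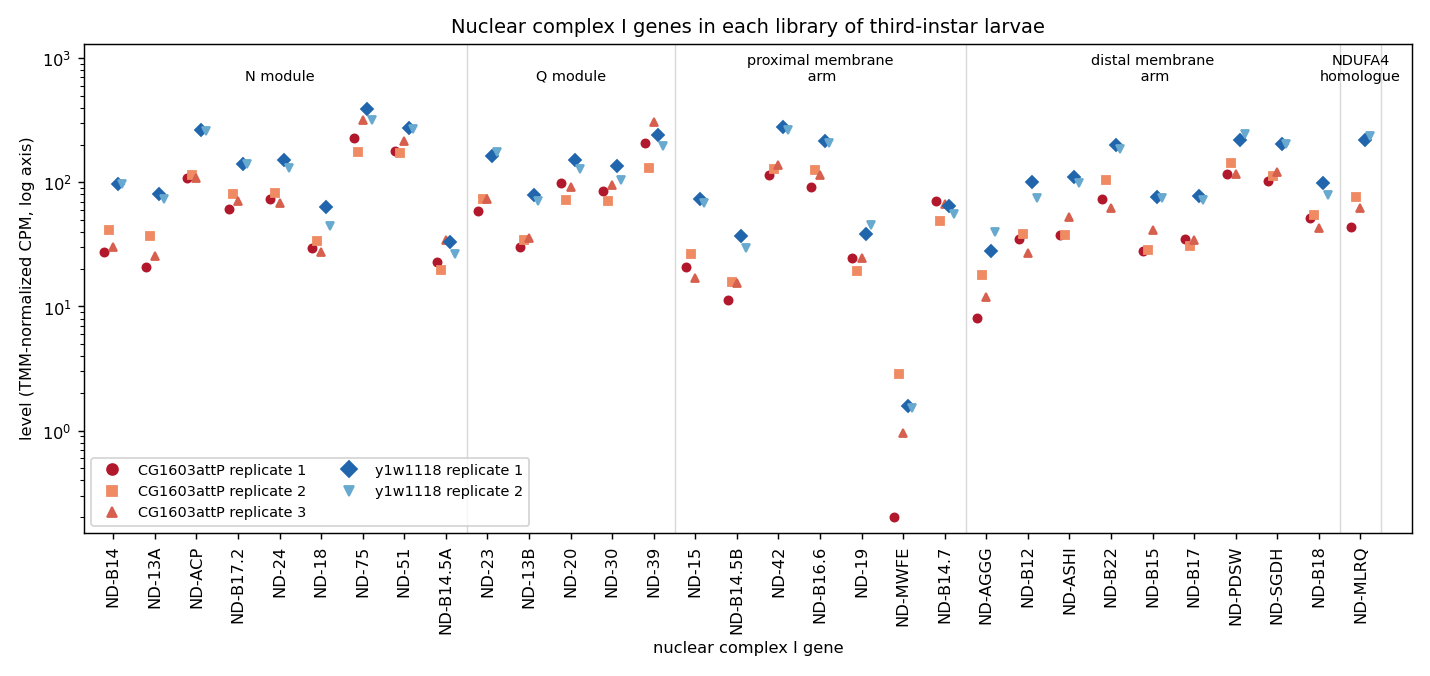
Level of 31 of the tested nuclear complex I genes in each library, in TMM-normalized CPM on a log axis, with the genes grouped by their place in the complex and ordered within a group by fold change. The 3 CG1603attP libraries lie below the 2 y1w1118 libraries in 27 of these 31 genes, and ND-MWFE stands apart with levels from 0.200 to 2.83 CPM.

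In the N module, 7 of the 9 genes tested fell, to between 33.7% and 69.6% of the y1w1118 level. The strongest change was that of ND-B14, whose human counterpart NDUFA6 is a small LYR protein that holds acyl carrier protein on the matrix arm. ND-B14 had 27.4, 41.0 and 30.1 CPM in CG1603attP, against 97.3 and 97.6 CPM in y1w1118 (log2 fold change -1.57 ± 0.20 SE, edgeR adjusted p = 0.00238). All CG1603attP libraries were under 50% of either y1w1118 library. ND-13A, the zinc-binding NDUFS6, had 21.0, 36.7 and 25.7 CPM in CG1603attP and 80.7 and 73.8 CPM in y1w1118 (log2 fold change -1.47 ± 0.25 SE, edgeR adjusted p = 0.00673). ND-ACP, the mitochondrial acyl carrier protein itself, varied least among the genes that fell, with 109, 114.6 and 108 CPM in CG1603attP and 264 and 261 CPM in y1w1118. Its log2 fold change of -1.25 ± 0.10 SE had the lowest adjusted p of the set (edgeR adjusted p = 0.000549).

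The core subunits of the N module had fold changes nearer to 0 than these accessory subunits. This did not hold for all accessory subunits tested there. ND-B17.2 lay at -0.99, ND-18 at -0.83 and ND-B14.5A at -0.22, against -0.91 for the core subunit ND-24. ND-24, the NDUFV2 orthologue with an iron-sulfur cluster, had 73.9, 82.6 and 68.7 CPM in CG1603attP and 151 and 130.3 CPM in y1w1118 (log2 fold change -0.91 ± 0.14 SE, edgeR adjusted p = 0.00405). ND-51, the NDUFV1 orthologue that binds NADH and flavin, had 180.0, 171 and 216 CPM in CG1603attP and 274 and 269 CPM in y1w1118 (log2 fold change -0.52 ± 0.13 SE, edgeR adjusted p = 0.0256). The ND-51 libraries did not overlap, but the gene lost its call in 6 of 17 alternatives, with adjusted p up to 0.285. ND-75, the NDUFS1 orthologue and the largest subunit, had 228, 175 and 315 CPM in CG1603attP and 386 and 317 CPM in y1w1118. CG1603attP replicate 3 had 99.4% of the level of y1w1118 replicate 2, so that the groups nearly met, and ND-75 did not pass (log2 fold change -0.56 ± 0.24 SE, edgeR adjusted p = 0.136).

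ND-18, the NDUFS4 orthologue that is added late in assembly, had 29.6, 33.9 and 27.2 CPM in CG1603attP and 63.1 and 44.7 CPM in y1w1118. It fell (log2 fold change -0.83 ± 0.22 SE, edgeR adjusted p = 0.0299), with a wider gap between the 2 wild-type libraries than among the 3 mutant ones, and lost its call in 6 of 17 alternatives, with adjusted p up to 0.248 in edgeR. ND-B17.2, the NDUFA12 orthologue, fell to 50.2% of y1w1118. ND-B14.5A, the NDUFA7 orthologue, had 22.6, 19.6 and 34.6 CPM in CG1603attP and 33.0 and 26.5 CPM in y1w1118, so that its groups overlapped (log2 fold change -0.22 ± 0.29 SE, edgeR adjusted p = 0.626).

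In the Q module, 4 of 6 genes fell, and 3 of them are described here. ND-23, the NDUFS8 orthologue that carries a pair of iron-sulfur clusters towards the ubiquinone site, had 58.2, 72.8 and 73.6 CPM in CG1603attP and 163 and 176 CPM in y1w1118 (log2 fold change -1.31 ± 0.14 SE, edgeR adjusted p = 0.00134). ND-20, the NDUFS7 orthologue with the last cluster of the chain, had 98.9, 71.5 and 91.8 CPM in CG1603attP and 152 and 127 CPM in y1w1118 (log2 fold change -0.68 ± 0.17 SE, edgeR adjusted p = 0.0266).

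ND-20 thus fell to 62.5% of the y1w1118 level. ND-13B, the NDUFA5 orthologue, fell to 44.6%, and ND-23 to 40.3%. ND-30, the NDUFS3 orthologue on which assembly of the matrix arm starts, had 84.9, 71.3 and 94.4 CPM in CG1603attP and 136 and 105 CPM in y1w1118. Its groups did not overlap, yet it did not pass (log2 fold change -0.53 ± 0.18 SE, edgeR adjusted p = 0.0652). ND-39, the NDUFA9 orthologue, whose human counterpart binds NADPH, had 206, 130.4 and 303 CPM in CG1603attP and 240.1 and 196 CPM in y1w1118. CG1603attP replicates 2 and 3 lay on either side of both wild-type libraries (log2 fold change -0.03 ± 0.33 SE, edgeR adjusted p = 0.950).

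Of the 7 core subunits of the N and Q modules, which are shared with the bacterial enzyme, 5 fell and 2 did not pass, with a median log2 fold change of -0.68. In all 7 every CG1603attP library was below both y1w1118 libraries.

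Around the proximal membrane arm, 5 of 7 genes fell, to between 30.2% and 55.0% of y1w1118. ND-15, the NDUFS5 orthologue on the intermembrane space side, changed most, with 20.9, 26.2 and 16.9 CPM in CG1603attP and 73.9 and 67.6 CPM in y1w1118 (log2 fold change -1.73 ± 0.22 SE, edgeR adjusted p = 0.0024). Its highest CG1603attP library had 38.8% of the lowest y1w1118 library. ND-42, the NDUFA10 orthologue from the nucleoside kinase family, fell to 47.0%, ND-B14.5B (NDUFC2) to 42.8% and ND-B16.6 (NDUFA13, also known as GRIM-19) to 52.8%. ND-19, the NDUFA8 orthologue, had 24.6, 19.2 and 24.7 CPM in CG1603attP and 38.2 and 44.9 CPM in y1w1118 (log2 fold change -0.86 ± 0.21 SE, edgeR adjusted p = 0.0216). ND-19 lost its call in 5 of 17 alternatives, with adjusted p up to 0.229 in edgeR. ND-B14.7, the NDUFA11 orthologue, had 71.0, 49.1 and 67.1 CPM in CG1603attP and 64.0 and 56.0 CPM in y1w1118. Its CG1603attP libraries lay on both sides of the wild-type ones (log2 fold change 0.06 ± 0.20 SE, edgeR adjusted p = 0.862), and its sign turned under 5 of 17 alternatives.

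The ND- genes of the distal membrane arm had the narrowest range of fold changes. All 9 ND- genes tested there fell, to between 37.7% and 56.2% of y1w1118, and the SD of the log2 fold change over these 9 was 0.23, against 0.45 over the N module, 0.60 over the Q module and 0.61 over the proximal membrane arm. NP15.6 (NDUFB11), a subunit of that arm whose symbol lies outside the naming rule, did not pass (log2 fold change -0.28, edgeR adjusted p = 0.211). ND-AGGG, the NDUFB2 orthologue, had 8.15, 18.1 and 12.0 CPM in CG1603attP and 28.1 and 39.6 CPM in y1w1118 (log2 fold change -1.41 ± 0.36 SE, edgeR adjusted p = 0.0275). Its groups did not overlap, and its standard error was the widest among the 26 genes that fell. It lost its call in 4 of 17 alternatives, with adjusted p up to 0.234 in edgeR. ND-B12 (NDUFB3), ND-ASHI (NDUFB8), ND-B22 (NDUFB9), ND-B15 (NDUFB4) and ND-B17 (NDUFB6) fell to between 38.4% and 44.2%, and ND-PDSW (NDUFB10) to 53.8%.

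ND-SGDH and ND-B18, the NDUFB5 and NDUFB7 orthologues, changed least in that group. ND-SGDH had 102, 112 and 121 CPM in CG1603attP and 202 and 205 CPM in y1w1118 (log2 fold change -0.87 ± 0.12 SE, edgeR adjusted p = 0.00279). ND-B18 had 51.8, 54.6 and 42.6 CPM in CG1603attP and 98.2 and 78.7 CPM in y1w1118 (log2 fold change -0.83 ± 0.18 SE, edgeR adjusted p = 0.0141). Neither gene's groups overlapped.

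ND-MLRQ had the lowest fold change of all 32 genes. Its human counterpart NDUFA4 was first described as a complex I subunit and is found in complex IV in mammals. ND-MLRQ had 43.5, 75.9 and 62.2 CPM in CG1603attP, against 220.2 and 237 CPM in y1w1118, and fell to 26.5% of y1w1118 (log2 fold change -1.92 ± 0.23 SE, edgeR adjusted p = 0.00173). CG1603attP replicate 1 was the lowest library, and the highest, replicate 2, had 34.5% of the lowest y1w1118 library.

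**Figure D2:**
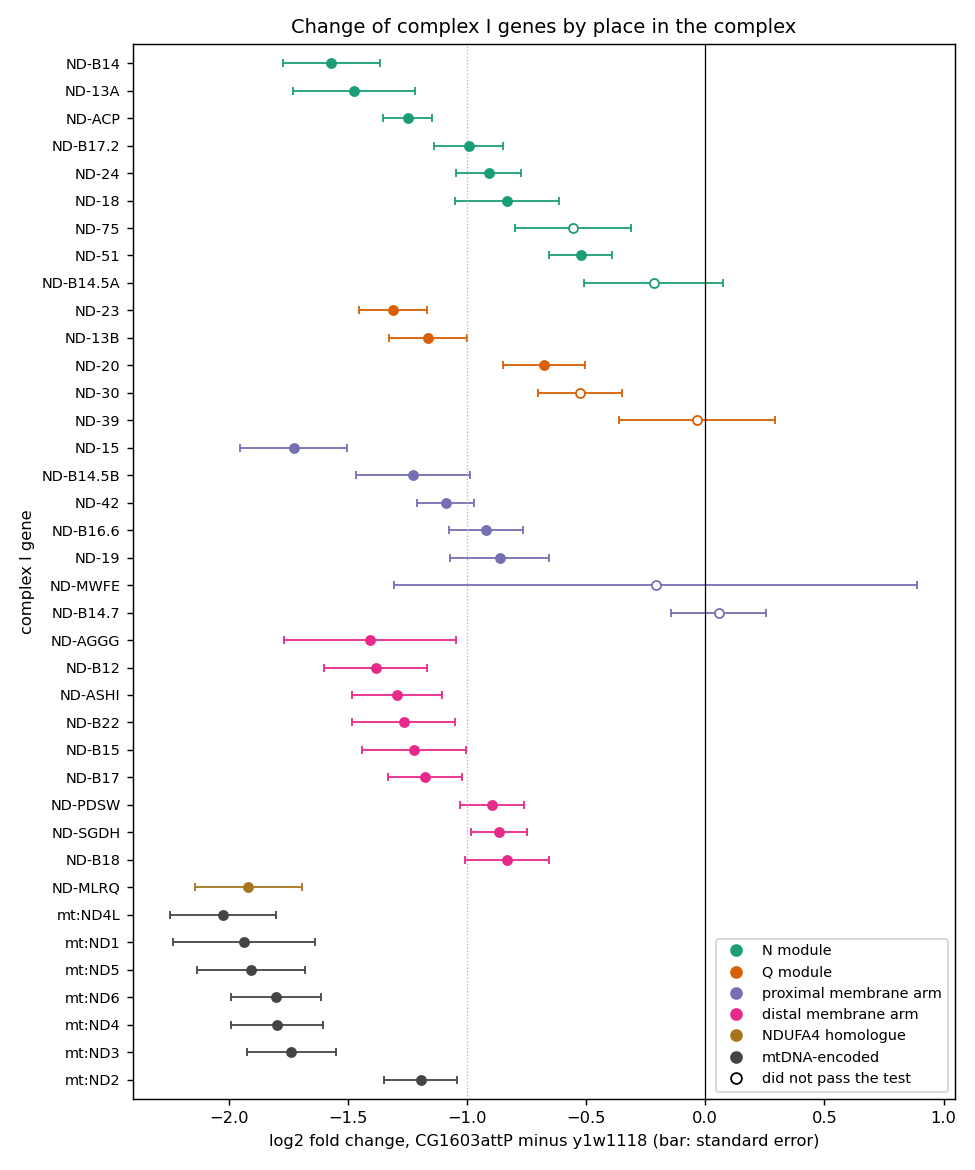
Log2 fold change (CG1603attP minus y1w1118, points) with its standard error (bars) of 31 of the tested nuclear genes by their place in the complex and of the 7 subunits encoded in mitochondrial DNA, with open points for genes that did not pass the test. The nuclear genes run from -1.92 (ND-MLRQ) to 0.06 (ND-B14.7), the 9 ND- genes of the distal membrane arm lie at or below -0.83, and the mitochondrial genes lie between -2.02 and -1.19.

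The 26 genes that fell spanned the chromosomes. They were 8 of the 9 ubiquitous genes on 2L, 6 of the 9 on X, 5 of the 7 on 3L, 4 of the 6 on 2R and both of the 2 on 3R, among others. Only ND-MLRQ and ND-AGGG start in heterochromatin, and both fell. ND-MLRQ lies at 23339326-23345936 of 3L on the plus strand of dm6, and ND-AGGG at 24976254-24977118 of 3L on the plus strand. The study lists ND-SGDH among euchromatin genes with an Mzfp1 peak but no motif at the promoter. Its expression results for genes with an Mzfp1 site in the promoter include ND-SGDH and ND-MLRQ. They come from these same libraries and so are not independent of them. In those results ND-MLRQ is classed as a heterochromatin gene whose promoter holds an Mzfp1 site with the motif. The study's separate list of genes with an Mzfp1 peak at the promoter holds ND-SGDH but not ND-MLRQ.

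Per exon length, the 31 tested genes other than ND-MWFE had mean levels from 17.1 to 170.4 RPKM (CPM per kilobase of exon) in CG1603attP, with a median of 70.5 RPKM, against 36.8 to 425 RPKM and a median of 134 RPKM in y1w1118. ND-MLRQ had the highest mean in y1w1118, with 112 RPKM in CG1603attP and 425 RPKM in y1w1118, and ND-PDSW the highest in CG1603attP, with 170.4 RPKM against 317 RPKM in y1w1118. Across these 31 genes, which share the same 5 libraries, the fold change had a Spearman's rho of -0.19 with the y1w1118 level in RPKM and of 0.25 with the exon length.

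CG1603attP replicate 1 had the lowest of the 3 values in 15 of the 26 genes, and replicate 2 the highest in 16. In the 5 genes that did not pass other than ND-MWFE, replicate 2 was the lowest library in 5 and replicate 3 the highest in 4. Both sets differ by what the test called, so this order is only a description.

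Reads over the exons of more than 1 gene were not counted for any gene. Exons of 17 of the 34 ubiquitous genes overlap those of another gene to some extent. Among the other 17, all tested, 13 fell and the median log2 fold change was -1.09. For 3 genes that overlap others, few or no reads were counted. ND-MNLL (NDUFB1), at 7893053-7893798 of X in dm6, has the same coordinates as CG45089 and had 0 reads in all libraries. ND-B8 (NDUFA2), which meets Gs1l over 15.4% of its exons, had 3, 0 and 0 reads in CG1603attP and 4 and 0 reads in y1w1118 and was not tested. With the stranded columns added up, as for ND-MWFE below, ND-B8 had 5 to 26 reads in CG1603attP and 38 to 39 reads in y1w1118. The part of the overlap in these counts was not tested. ND-B16.6 overlaps another gene over 17.5% of its exons and had 91.6 to 127 CPM in CG1603attP and 207 to 214 CPM in y1w1118. ND-MWFE (NDUFA1), whose exons are shared with TppII and Nrk over 34.95% of their length, had 3, 39 and 9 reads in CG1603attP and 16 and 13 reads in y1w1118 (log2 fold change -0.21 ± 1.10 SE, edgeR adjusted p = 0.908). When the stranded columns were added up for ND-MWFE, which keeps reads over an opposite-strand neighbour, it had 129 to 357 reads in CG1603attP and 339 to 360 reads in y1w1118. The library kit does not keep strand, so these reads can belong to either gene, and the level of ND-MWFE is uncertain.

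The subunits encoded in mitochondrial DNA were lower in CG1603attP as well. They form the pumps of the membrane arm, and all 7 fell, with a median log2 fold change of -1.80. mt:ND4L changed most, with 87.1, 123 and 73.3 CPM in CG1603attP and 354 and 413 CPM in y1w1118 (log2 fold change -2.02 ± 0.22 SE, edgeR adjusted p = 0.00134). mt:ND1 had 534, 869 and 424 CPM in CG1603attP and 2067 and 2592 CPM in y1w1118 (log2 fold change -1.94 ± 0.30 SE, edgeR adjusted p = 0.00453). mt:ND2 changed least, with 88.1, 88.1 and 98.7 CPM in CG1603attP and 179 and 240.4 CPM in y1w1118 (log2 fold change -1.19 ± 0.15 SE, edgeR adjusted p = 0.00229). None of these groups overlapped.

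mt:ND5 had 676, 939 and 606 CPM in CG1603attP and 2376 and 3174 CPM in y1w1118 (log2 fold change -1.91 ± 0.22 SE, edgeR adjusted p = 0.00173). mt:ND4 had 562, 731 and 522 CPM in CG1603attP and 1827 and 2378 CPM in y1w1118 (log2 fold change -1.80 ± 0.19 SE, edgeR adjusted p = 0.00126). Both fell, and in both CG1603attP replicate 2 was the highest mutant library. mt:ND6 had 33.9, 36.7 and 30.2 CPM in CG1603attP and 97.9 and 136 CPM in y1w1118 (log2 fold change -1.80 ± 0.19 SE, edgeR adjusted p = 0.00119). mt:ND3 had 26.1, 20.6 and 22.3 CPM in CG1603attP and 70.0 and 83.6 CPM in y1w1118 (log2 fold change -1.74 ± 0.19 SE, edgeR adjusted p = 0.0013).

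Summed over the genes, the 34 nuclear members had 2194, 2277 and 2570.3 CPM in CG1603attP and 4677 and 4401 CPM in y1w1118. The 7 mitochondrial genes had 2007, 2807 and 1776 CPM in CG1603attP and 6971 and 9018 CPM in y1w1118. The library order was not shared, since CG1603attP replicate 3 was the highest mutant library for the nuclear sum and the lowest for the mitochondrial sum. The other mitochondrial messenger RNAs, for subunits of complexes III and IV and ATP synthase, fell in 5 of 6 cases, with a median log2 fold change of -1.35. mt:ATPase6 did not pass (log2 fold change -0.46, edgeR adjusted p = 0.122).

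Assembly factors build complex I from its modules and are not part of the finished enzyme. Of 9 assembly genes found and tested, 4 fell, 0 rose, and the median log2 fold change was -0.87. The listed names B17.2L, Ndufaf2, Ndufaf5, Ndufaf7, Ndufaf8, Tmem126A and Dmac1 matched no gene identifier and were left out, so the list is incomplete. ECSIT, an adaptor needed for early membrane arm assembly, had 94, 84 and 32 reads in CG1603attP and 203 and 147 reads in y1w1118 (log2 fold change -1.81 ± 0.34 SE, edgeR adjusted p = 0.00914). CIA30, the NDUFAF1 orthologue, had 180, 231 and 145 reads in CG1603attP and 257 and 222 reads in y1w1118 (log2 fold change -0.79 ± 0.23 SE, edgeR adjusted p = 0.0393). The genes matched as Foxred1 (l(2)37Bb) and Tmem186 (CG4627) fell as well, with log2 fold changes of -0.83 and -1.18, and sicily, the NDUFAF6 orthologue, did not pass (log2 fold change -0.90, edgeR adjusted p = 0.0782). Nubpl, which inserts iron-sulfur clusters into complex I, had a log2 fold change of 0.12 with overlapping groups. Some of these genes, such as ECSIT, were counted with few reads, while Nubpl had 654, 780 and 344 reads in CG1603attP. The count of 4 ranged from 0 to 5 under the alternatives.

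The nuclear genes of the other complexes were also lower on the whole. Of the ATP synthase genes, 12 of 13 fell, with a median log2 fold change of -1.09, against -1.04 for nuclear complex I. The catalytic ATPsynbeta had 1032, 1476 and 1349 CPM in CG1603attP and 4930.4 and 5368 CPM in y1w1118, and fell to 25.0% of y1w1118 (edgeR adjusted p = 0.000781). In complex IV 6 of 9 fell (median -0.71), in complex III 5 of 8 (median -0.84) and in complex II 2 of 4 (median -0.49). In complex III the members ranged from ox and UQCR-6.4, at -1.62 and -1.60, to the core protein UQCR-C1 at -0.21, which did not pass. These lists are short, and their differences from complex I were not tested.

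**Figure D3:**
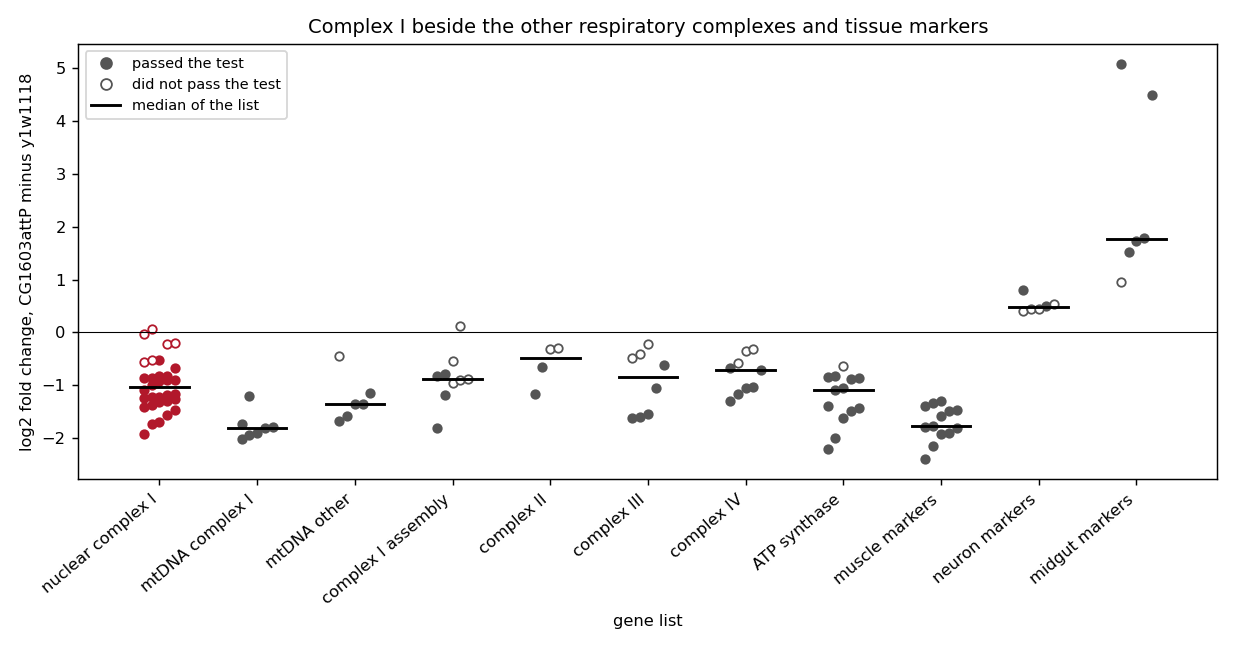
Log2 fold change (CG1603attP minus y1w1118) of every tested gene of complex I, the other respiratory complexes and the muscle, neuron and midgut markers. Filled points are genes that passed the test, and a bar lies at the median of each list. The median of nuclear complex I (-1.04) lies near that of ATP synthase (-1.09) and above that of the mitochondrial complex I genes (-1.80) and the muscle markers (-1.78), while neuron and midgut markers have medians of 0.48 and 1.76.

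In whole larvae a lower level can come from fewer cells of a type or from less RNA per cell, and these cannot be told apart here. Muscle markers moved with complex I. All 13 of them, among them Mhc, Mlc2 and Act57B, fell in CG1603attP, with a median log2 fold change of -1.78, and their summed level was 20803, 26972 and 27244 CPM in CG1603attP against 88948 and 82016 CPM in y1w1118. No muscle marker was at 0 in any library. Of the 6 neuron markers 2 rose, with a median of 0.48, and 5 of the 6 midgut markers rose, with a median of 1.76. Only 3 of 6 fat body markers had enough reads to be tested. Of these 0 were called, with log2 fold changes from -0.88 to 1.45. The summed level of the fat body markers was low, with 6.21, 5.52 and 14.6 CPM in CG1603attP and 14.1 and 8.82 CPM in y1w1118. The part of tissue composition, or of larval age within the instar, in the complex I values was not tested.

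**Figure D4:**
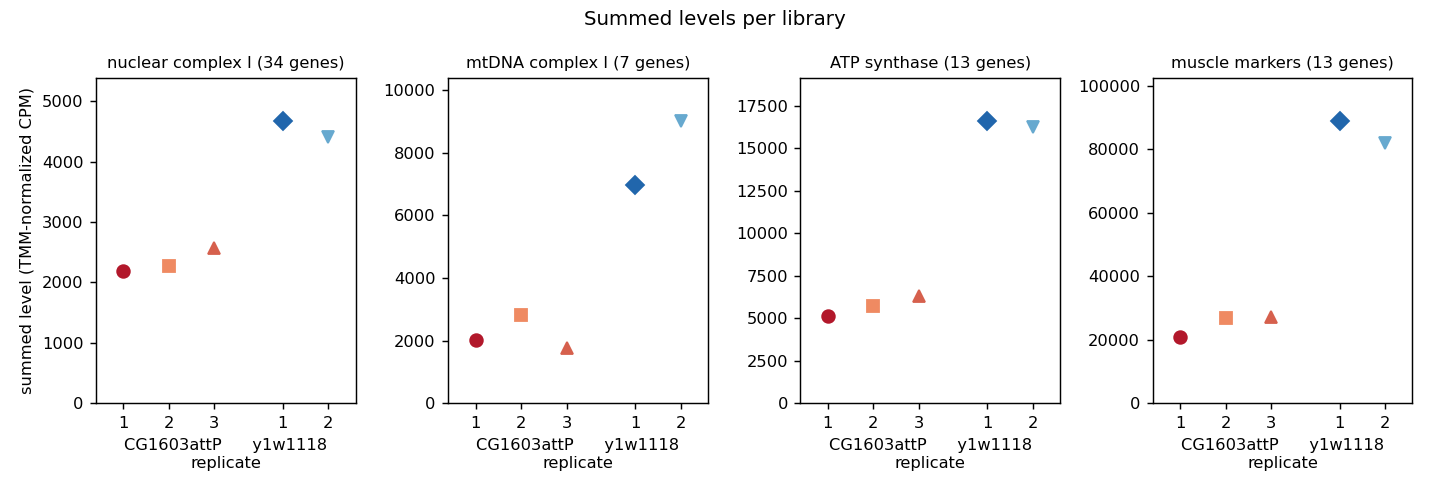
Summed TMM-normalized CPM in each library of the 34 nuclear complex I genes, the 7 mitochondrial complex I genes, 13 ATP synthase genes and 13 muscle markers, each on its own linear axis from 0. In all 4 lists the CG1603attP libraries lie below the y1w1118 libraries, for nuclear complex I at 2194 to 2570.3 CPM against 4401 to 4677 CPM.

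The L paralogs had few or no reads in both genotypes, and none passed the test. Among the copies of ND-51, ND-51L1 had 93, 13 and 51 reads in CG1603attP and 33 and 32 reads in y1w1118, and ND-51L2 had 30, 17 and 22 reads in CG1603attP and 30 and 8 reads in y1w1118. The 3 CG1603attP libraries of ND-51L1 spread around the wild-type ones. ND-B14.5AL had 13, 3 and 6 reads in CG1603attP and 2 and 1 reads in y1w1118, which was too few to be tested although the groups did not overlap. ND-20L had 0 reads in every CG1603attP library and 0 and 1 reads in y1w1118, and ND-24L had 0 reads in all 5, with a limit of 3 reads, or 0.200 to 0.348 CPM. Reads that map equally well to a gene and its copy were not counted for either.

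Testis markers other than bol and fzo were likewise low. Of the whole list, 0 of the 10 tested were called, with log2 fold changes from -3.01 to 2.14. The summed level of the list was 149, 159 and 140 CPM in CG1603attP and 160.5 and 173 CPM in y1w1118, most of it from bol and fzo. Among the 27, 17 had too few reads to test, with Mst84Da, Mst84Db, Mst84Dc, Mst84Dd and Mst98Ca at 0 reads in every library. lncRNA:roX1, a male-specific RNA of the dosage compensation complex, had 675, 1496 and 541 CPM in CG1603attP and 703 and 630.4 CPM in y1w1118. CG1603attP replicate 2 was the only library above 703 CPM, and the sex of the larvae is not given in the sources used here.

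**Figure D5:**
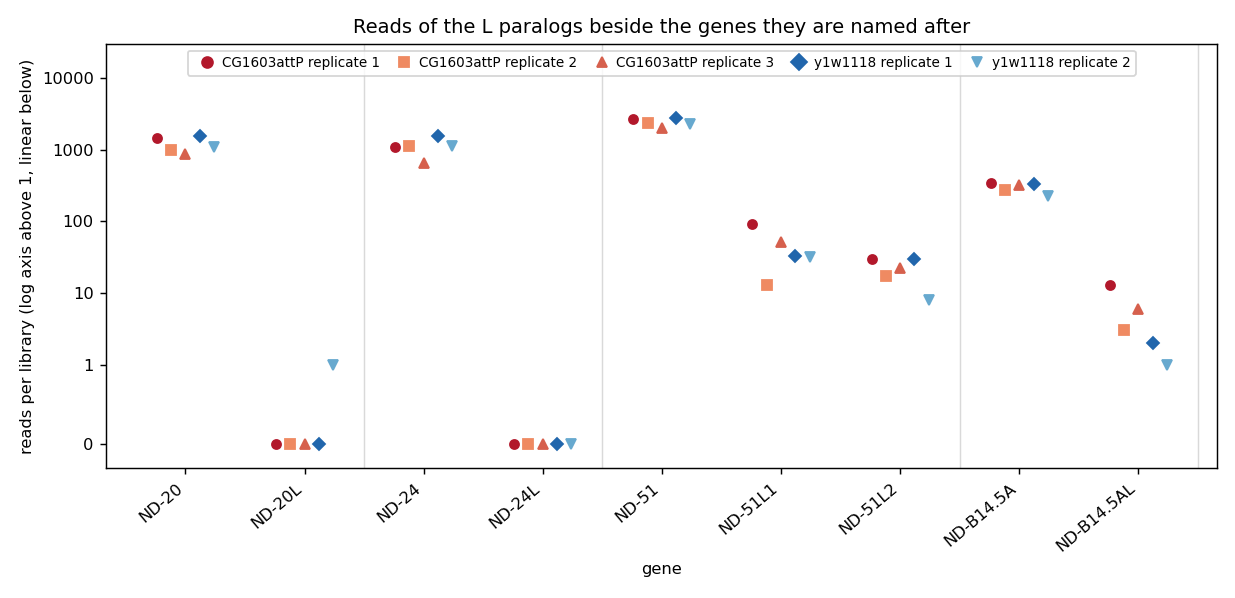
Reads per library of 5 L paralogs beside the 4 ubiquitous genes they are named after, on an axis that is logarithmic above 1 read and linear below. These paralogs had at most 93 reads in a library, and ND-24L had 0 reads in all 5 libraries.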

How the data were processed

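RNA-seq was performed on whole larvae, and trimmed reads were aligned by the authors to dm6 with STAR. The deposited values are whole-number counts of reads on each gene (GeneCounts mode), not normalized. Per the submitters' processing notes adapters were removed with cutadapt. Versions of the trimmer and the aligner and the annotation release are not stated in the sources used here. STAR sets aside reads with several alignments or over more than 1 gene, so overlapping and duplicated genes can be undercounted. The unstranded column was used, since both stranded columns had nearly equal totals in every library.

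The 4 summary lines (23.8% to 30.0% of reads unmapped, 5.58% to 10.6% multimapping, 4.15% to 6.22% without feature, 3.28% to 6.26% ambiguous) and 138 ribosomal RNA genes were left out. Analysis used edgeR 4.0.16 under R 4.3.3. The filter was filterByExpr at its minimum count of 10 and minimum total of 15, which left 11045 genes, and scaling was by TMM. The functions estimateDisp, glmQLFit (legacy form) and glmQLFTest compared the genotypes over all of them, at an adjusted p of 0.05. SE was taken as the absolute log2 fold change over the root of F. Functions and threshold follow the study. The fit was tested on simulated counts first. Limits given in reads cover counting error only. SE and p-values rest on the spread between libraries of the same genotype, moderated by the spread over all genes tested.

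The members and lists were chosen with earlier results of these data known. Values and statistics are given for the 7 core subunits of the N and Q modules, the 5 lowest and 5 highest fold changes among called members, members in the promoter lists of the study, paralogs and mitochondrial ND genes. ND-ACP, ND-AGGG, the members that did not pass and the examples from other lists were chosen after their values were seen. Positions and exons came from the Ensembl annotation of dm6 (all 40 members found), and modules from the mammalian orthologue. Alternatives were RLE, upper-quartile or library-size scaling, 2 other filters, the current and the robust quasi-likelihood fit, DESeq2 1.42.0, a stranded column, ribosomal RNA genes kept, each replicate left out, and the replicate number as a block. Replicate pairs differed by more than sampling noise (chi-square per degree of freedom from 18.8 to 44.9). Among the members, 1 gene and its paralog are counted in the totals but not reported here.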

Additional observations from a re-analysis of the deposited data

How the results depend on the processing

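Nuclear complex I kept its direction under all 17 alternatives. With 1 library left out the 26 genes called lower became 13 to 25, the 13 without y1w1118 replicate 1 and 22 to 25 without any other, and 0 were called higher under any of them. Library size alone gave 24, DESeq2 27, the other scalings and filters 26, and without both libraries with high cuticle-gene reads, an alternative chosen after seeing the data, 19. Without genes with exon overlap, also chosen afterwards, 13 of 17 were lower, since fewer genes were counted. The median log2 fold change of the set was between -1.11 and -0.90, the value nearest 0 coming from scaling by library size only, which moved the median of all genes to 0.13.

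No pairing by replicate number was visible, since deviations of same-numbered libraries had correlations of -0.51 and -0.27. With only 2 wild-type libraries this cannot decide whether same-numbered libraries were handled together. With the replicate block 26 genes were again lower, 24 of them among the first 26. ND-75 and ND-30 then passed (adjusted p = 0.014 and 0.0303), ND-18 and ND-19 did not, ND-B14.7 had -0.020, the complex IV median was -0.83 and 2 assembly genes were lower.

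The sign of members with values near 0 turned. ND-39 had 0.10 with library size only, 0.031 with the stranded column and -0.35 to 0.24 with 1 library left out. ND-B14.7 had -0.0056 with the stranded column, -0.051 to 0.22 with 1 library left out and -0.16 without both cuticle-high libraries. Small lists moved most. Library size only gave 1 assembly and 1 complex II gene lower and medians of -0.57 for complex IV and -0.95 for ATP synthase. The stranded column gave 2 assembly genes, and upper-quartile factors 1 complex II gene. Leaving out 1 library gave 0 to 4 assembly, 1 to 2 complex II, 3 to 5 complex III and 2 to 7 complex IV genes, and an ATP synthase median of -1.16 to -1.02. Without both cuticle-high libraries 1 assembly, 1 complex II and 3 complex III genes were lower and the ATP synthase median was -1.19. The causes were not tested beyond the smaller number of libraries. With 2 wild-type libraries, no promoter sequence and no second deletion line, neither the background of the line nor promoter words could be examined. The planned search for promoter words was not run.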

Other observations

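Complex I genes whose symbols do not start with ND- showed mixed values. CG40472, a likely relative of ND-AGGG by its synonym, had 97, 206 and 86 reads in CG1603attP and 252 and 280 reads in y1w1118 and fell (log2 fold change -1.49, edgeR adjusted p = 0.0251). NdufA3, a membrane arm subunit, had 188, 195 and 147 reads in CG1603attP and 192 and 98 reads in y1w1118, with overlapping groups (log2 fold change -0.10, edgeR adjusted p = 0.822). NdufV3, an accessory subunit of the N module, had 178, 91 and 301 reads in CG1603attP and 209 and 103 reads in y1w1118 (log2 fold change 0.04, edgeR adjusted p = 0.971). NP15.6 (NDUFB11), in the distal membrane arm, had 1043, 810 and 625 reads in CG1603attP and 871 and 625 reads in y1w1118 (log2 fold change -0.28, edgeR adjusted p = 0.211). Its scaled levels were lower in every CG1603attP library, but it did not pass, unlike the 9 ND- genes of that arm.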
